A study of Mus musculus with 28 samples.

Results

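The cell body layer of hippocampal area CA2 was set against that of its neighbour CA1 in laser-captured tissue of mice 492, 496 and 502, each of which gave 1 library per layer. The 6 libraries were taken by name, as the CA2 and CA1 cell body columns of the gene table, out of 28 samples in the series, and were paired by mouse. All animals were adult males of 6 to 8 weeks from separate litters, on a C57BL/6J background, and carried the Amigo2-EGFP reporter, which marks CA2. Every group therefore shared the reporter, and no animal without it was sampled. The labels do not give the reporter construct, so what it adds to reads of Amigo2 itself was not tested. The CA2 and CA1 samples came from stratum pyramidale, cut from 8 µm sections of flash-frozen brain, and about 20 caps of 5 sections each were pooled per layer and animal. Each library started from 5 ng of RNA with 16 PCR cycles. A captured layer holds pyramidal cell bodies with the glia, vessels, interneurons and passing axons between them. In such bulk samples, fewer cells of a type and less RNA per cell cannot be told apart. Cell body libraries of CA3 and of the dentate gyrus (DG) of the same mice, 3 each, are given beside the CA2 and CA1 values where they place a gene, as are the dendritic layers of CA2 and CA1.

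CA2 is a narrow field between CA3 and CA1 whose pyramidal neurons take part in social recognition memory. Their synapses in stratum radiatum are known to resist long-term potentiation, the activity-dependent strengthening that is readily induced in CA1, and strong calcium buffering and extrusion and the signalling protein RGS14 have been tied to that resistance. CA2 neurons are also wrapped in perineuronal nets, a lattice of proteoglycans, and respond to vasopressin and oxytocin.

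Normalized totals were 46.8 to 55.5 M normalized counts in the CA2 libraries and 37.4 to 41.0 M in the CA1 libraries. The mitochondrial genome gave 7.15% to 9.08% of these totals in CA2 and 4.21% to 5.57% in CA1. Between 18439 and 19443 genes had at least 10 normalized counts in a CA2 library, against 19278 to 19770 in a CA1 library. Over the tested genes, Pearson's r between libraries of different mice was 0.90 to 0.924 within CA2 and 0.923 to 0.954 within CA1, while CA2 libraries correlated with CA1 libraries at 0.867 to 0.920 and with CA3 libraries at 0.882 to 0.931. These coefficients are across genes, which are not independent replicates, and their ranges overlapped.

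Of 22232 genes tested with limma, 5143 (23.1%) passed an adjusted p of 0.05. CA2 was higher for 3585 genes (16.1% of those tested) and lower for 1558 (7.01%). The higher calls included 1552 genes (6.98%) with at least a 2-fold difference, and the lower calls 991 (4.46%). The balance of higher and lower calls depended on how libraries were scaled, since the median gene differed by 0.09 on the log2 scale with the deposited values, by −0.03 after quantile normalization and by −0.24 after rescaling to library totals. Higher genes made up 69.7% of the calls with the deposited values, 49.3% after quantile normalization and 34.6% after rescaling to totals. Leaving out mouse 496 reduced the calls to 2669. The p-values measure the spread between samples of 3 animals. In what follows, every value is a log2 normalized value, given per library in the order of mice 492, 496 and 502, each difference is CA2 minus CA1 on the log2 scale with the standard error (SE) of the limma fit, and each adjusted p is from that fit with Benjamini-Hochberg adjustment over all genes tested.

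**Figure D1:**
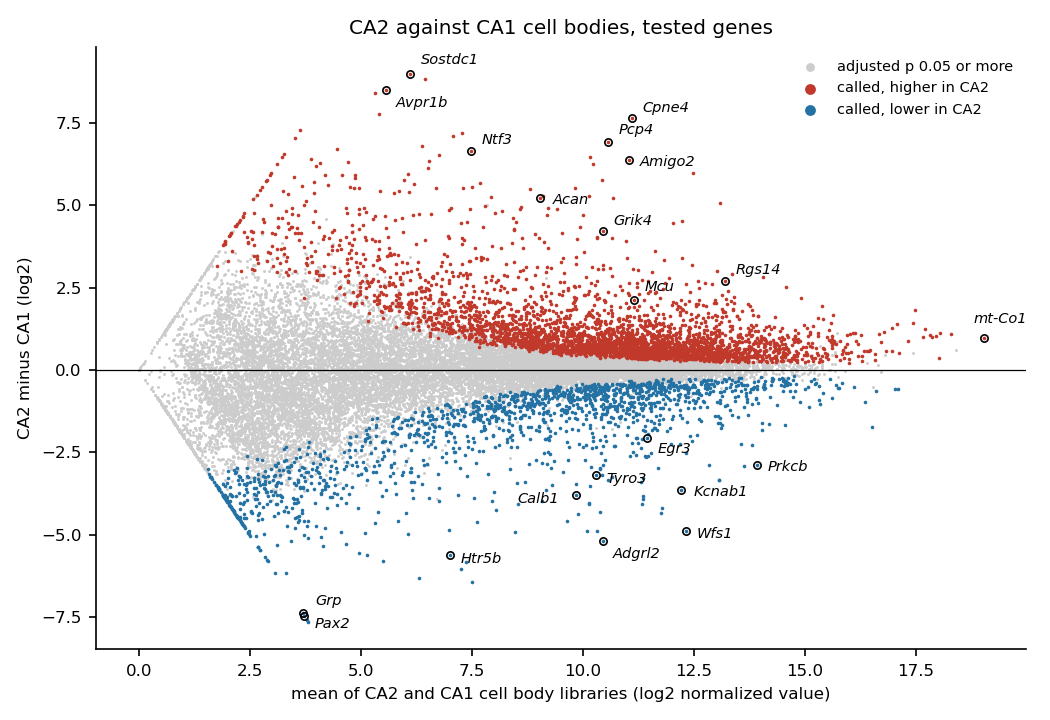
Each point is 1 of 22232 tested genes, with the mean log2 normalized value of the 6 CA2 and CA1 cell body libraries on the horizontal axis and CA2 minus CA1 (log2) on the vertical axis. Red points were called higher and blue points lower in CA2 with the deposited scaling, and named examples include Pcp4 (6.92) on the higher side and Adgrl2 (−5.19) on the lower side.

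The published identity genes of CA2 separated the layers. Of 13 listed CA2 markers, all tested, 12 rose in CA2 and 1, Tyro3, fell, beside 16.1% and 7.01% of all genes. Their median difference was 5.26, beside 0.09 over all genes. Pcp4, a small calmodulin-binding protein, stood at 13.86, 13.71 and 14.48 in CA2, against 6.80, 6.67 and 7.83 in CA1. All 3 CA2 libraries lay far above all 3 CA1 libraries, a 121-fold difference (6.92 ± 0.180, SE, adjusted p = 1.94e-11). Amigo2, a cell adhesion protein, had values of 14.29, 14.06 and 14.36 in CA2 and of 7.81, 7.24 and 8.53 in CA1, an 83.0-fold difference (6.37 ± 0.226, SE, adjusted p = 1.96e-10). Rgs14, the regulator of G protein signalling that limits plasticity in CA2, read 14.50, 14.52 and 14.67 in CA2, against 11.69, 11.89 and 11.97 in CA1. The groups did not overlap for either gene, although Rgs14 was well detected in CA1 and the difference was smaller, at 6.55-fold (2.71 ± 0.126, SE, adjusted p = 2.16e-09). In CA3 its mean was 9.54, below both CA2 and CA1.

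Other CA2 markers rose by differing amounts. Necab2, a neuronal calcium-binding protein, was 37.0-fold higher (5.21 ± 0.249, SE), and the neurotrophin Ntf3 was 101-fold higher (6.65 ± 0.467, SE, adjusted p = 1.32e-07). Ptpn5, the striatal-enriched phosphatase STEP that opposes synaptic strengthening, was 5.25-fold higher (2.39 ± 0.142, SE, adjusted p = 2.33e-08). Map3k15, a stress-pathway kinase, read 11.11, 10.64 and 10.89 in CA2, against 4.74, 1.89 and 4.46 in CA1, and its CA3 mean was 1.64. Sostdc1, a secreted antagonist of bone morphogenetic proteins, had values of 10.57, 10.23 and 10.96 in CA2 and was listed at 0 in 2 of 3 CA1 libraries, with 4.88 in mouse 502. The receptor tyrosine kinase Tyro3 was the exception, with 8.67, 8.93 and 8.50 in CA2 and 11.65, 11.86 and 12.15 in CA1. It was 9.09-fold lower in CA2 (−3.18 ± 0.192, SE, adjusted p = 2.6e-08), and its CA3 mean of 10.08 lay between them.

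The CA1 markers ran the other way. Of 11 tested, 10 fell and 1, Spink8, was called higher, beside 7.01% and 16.1% of all genes, with a median of −4.17. Wfs1, the endoplasmic reticulum protein mutated in Wolfram syndrome, read 9.78, 9.98 and 9.86 in CA2, against 14.65, 14.62 and 15.02 in CA1. This was a 29.7-fold difference with no overlap (−4.89 ± 0.261, SE, adjusted p = 2.18e-08), and the CA2 level was close to the CA3 mean of 9.43 (CA2 minus CA3 0.44, adjusted p = 0.321). Man1a, a Golgi mannosidase, Mpped1 and Fibcd1 fell by 4.33, 3.82 and 4.17. Spink8, a serine protease inhibitor, had 11.62, 11.44 and 12.46 in CA2, against 10.69, 10.50 and 10.63 in CA1 (1.23 ± 0.395, SE, adjusted p = 0.0365). Its call was lost under quantile normalization (adjusted p = 0.181), under rescaling to totals (0.126) and without mouse 492 (0.0877) or 496 (0.125).

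**Figure D2:**
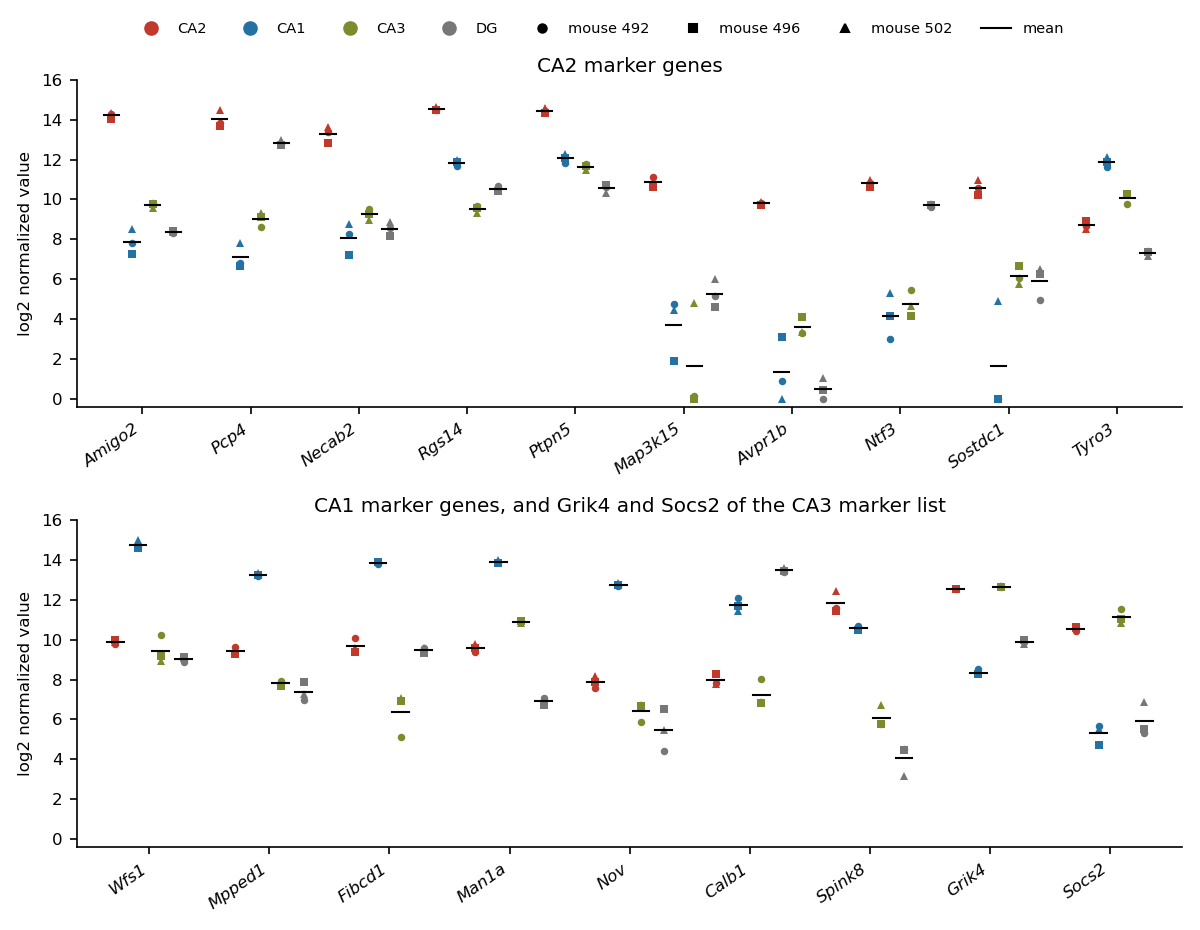
Log2 normalized values of 10 CA2 markers (top) and of CA1 markers with Grik4 and Socs2 of the CA3 list (bottom) in the cell body libraries of CA2, CA1, CA3 and DG. Each symbol is 1 mouse and the bar is the mean of 3, and CA2 lies above CA1 for all CA2 markers shown except Tyro3 and below it for all CA1 markers shown except Spink8.

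Several markers of CA3 were also high in CA2. Of 8 CA3 markers, 7 were higher in CA2 than in CA1, beside 16.1% of all genes. The other, Col6a1, did not pass the test (0.78). Grik4, a high-affinity kainate receptor subunit, read 12.54, 12.56 and 12.57 in CA2, against 8.52, 8.27 and 8.26 in CA1 (18.5-fold, 4.21 ± 0.119, SE, adjusted p = 2.73e-11). The CA3 mean was 12.66, and CA2 minus CA3 was −0.11 (adjusted p = 0.629). Socs2, a suppressor of cytokine signalling, was 38-fold higher in CA2 than in CA1 (5.25 ± 0.357, SE), with a CA3 mean of 11.15. Bok, a relative of the apoptosis regulator BCL2, was 2.87 higher in CA2 than in CA1 and 2.17 lower than in CA3 (CA2 minus CA3 −2.17, adjusted p = 6.04e-06). Summed over the list, CA3 markers reached 12451 to 13843 normalized counts in CA2, against 1943 to 2432 in CA1, and 29392 to 32903 in CA3. Whether CA3 cells at the border add to the CA2 values was not tested. CA2 and CA1 share the CA3 libraries in these values, so the CA3 figures are given only side by side. CA2 differed from CA3 at 13.6% of genes, and CA1 from CA3 at 19.2%.

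The 15 largest differences in each direction, among called genes with the same direction in all 3 mice and a mean of at least 100 normalized counts in the higher group, held further genes of each kind. Cpne4, a calcium-dependent phospholipid-binding copine, read 14.86, 14.94 and 14.99 in CA2, against 6.34, 6.69 and 8.86 in CA1 (199-fold, 7.64 ± 0.483, SE, adjusted p = 1.16e-05), with a CA3 mean of 14.79. Mctp1, a membrane protein with calcium-binding C2 domains, was 88.2-fold higher (6.46 ± 0.471, SE), with a CA3 mean of 12.59. Tmem215 and Stc2, a secreted glycoprotein that affects calcium handling, were also high in both CA2 and CA3, with CA2 values of 10.70, 10.67 and 11.19 for Tmem215 and of 9.21, 9.24 and 9.39 for Stc2, and CA3 means of 9.69 and 8.56. By contrast, Fam160a1 (6.52 ± 0.383, SE, 91.7-fold) had a CA3 mean of only 4.69. Kcnh8, a potassium channel, read 7.28, 7.80 and 6.75 in CA2 and was listed at 0 in all CA1 libraries, as was the bestrophin channel gene Best3, with 6.95, 6.71 and 7.44 in CA2. No fold is given for these. Lower in CA2 were Pax2, a developmental transcription factor, and Grp, the precursor of gastrin-releasing peptide, each listed at 0 in all CA2 libraries, with 7.66, 7.15 and 7.55 for Pax2 and 7.06, 8.10 and 6.98 for Grp in CA1. The adhesion receptor latrophilin 2, Adgrl2, was more abundant, with 7.52, 7.60 and 8.42 in CA2, against 13.06, 12.88 and 13.19 in CA1. It was 36.5-fold lower in CA2 (−5.19 ± 0.202, SE, adjusted p = 4.32e-10). Met, the hepatocyte growth factor receptor, Htr5b, a serotonin receptor, and Efcab6 fell by 5.54, 5.60 and 6.42. Tsix, annotated antisense to Xist, is in the same group of largest differences, but without strand its reads and those of its partner cannot be told apart.

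AMPA receptors carry fast excitatory transmission, and their auxiliary proteins set gating and trafficking. The main pore-forming subunits were lower in CA2. Gria1 read 15.22, 15.24 and 15.12 in CA2, against 16.02, 15.98 and 16.12 in CA1. The CA2 libraries varied little and all lay below CA1, by 1.79-fold (−0.84 ± 0.0616, SE, adjusted p = 1.96e-07). Gria2, which limits calcium entry, fell by 0.70 (SE 0.0646), while Gria4 rose by 1.13 and Gria3 did not pass the test (−0.27, adjusted p = 0.111). The auxiliary subunits divided strongly. Cacng5, a transmembrane AMPA receptor regulatory protein (TARP) and one of the CA2 markers, had 12.77, 12.63 and 12.88 in CA2, against 6.80, 7.42 and 8.27 in CA1 (38.4-fold, 5.26 ± 0.326, SE, adjusted p = 3.54e-08), with a CA3 mean of 5.12. Shisa9, another auxiliary subunit, rose by 1.83, whereas the TARP Cacng3 fell by 2.61, the cornichon Cnih3 by 2.18 and Gsg1l by 1.84. In all, 7 of 16 tested AMPA genes were higher and 7 lower, beside 16.1% and 7.01% of all genes. Their median was −0.14, and under rescaling to totals the counts were 5 and 9.

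For NMDA receptors, the coincidence detectors of synaptic plasticity, 3 of 7 tested genes were lower and 0 higher, beside 7.01% and 16.1% of all genes. Grin2a stood at 15.89, 15.77 and 15.95 in CA2, against 16.85, 16.67 and 17.01 in CA1 (−0.97 ± 0.0721, SE, adjusted p = 2.19e-07). Grin2b fell by 0.59 and Grin3a by 1.03, and Grin3a lost its call without mouse 496 (adjusted p = 0.0536). The obligatory subunit Grin1 differed by 0.10 and did not pass the test (adjusted p = 0.32). For kainate receptors, Neto1, an auxiliary subunit, joined Grik4 with 12.98, 12.90 and 13.18 in CA2, against 10.49, 10.66 and 10.55 in CA1 (5.48-fold, 2.45 ± 0.105, SE), below the CA3 mean of 14.39. Among 7 metabotropic glutamate receptors, 1 (14.3%) was higher, a share near the 16.1% of all genes. Another, Grm3, was lower, by 1.16, beside 7.01% of all genes lower. GABA-A receptors mediate fast inhibition. Of 12 tested subunits, 5 were lower, beside 7.01% of all genes, against 7 under quantile normalization. Only 1 (8.33%) was higher, a share below the 16.1% of all genes. Gabrg3 read 10.48, 9.83 and 10.28 in CA2, against 11.81, 11.59 and 11.65 in CA1 (−1.49 ± 0.195, SE), and Gabrb1 was the 1 subunit called higher, by 0.87.

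Single receptors for peptides and amines differed strongly in either direction. Avpr1b, the vasopressin receptor linked to social memory in CA2, had 9.81, 9.73 and 9.87 in CA2, against 0.86, 3.09 and 0.00 in CA1. The CA2 values were nearly equal and far above CA1, where the gene was at the edge of detection (8.49 ± 0.891, SE, adjusted p = 7.52e-06). Oxtr, the oxytocin receptor, read 10.54, 10.31 and 10.90 in CA2, against 6.88, 5.77 and 6.31 in CA1 (19.2-fold, 4.26 ± 0.309, SE, adjusted p = 1.79e-07), with a CA3 mean of 8.72 between them. Serotonin receptors went opposite ways. Htr7 stood at 9.80, 10.25 and 9.70 in CA2 and at 4.81, 5.13 and 5.13 in CA1 (29.7-fold higher, 4.89 ± 0.4, SE), whereas Htr1a, an inhibitory receptor, had 8.45, 8.28 and 8.43 in CA2 and 11.98, 11.79 and 11.97 in CA1. Htr1a was thus 11.5-fold lower in CA2 (−3.53 ± 0.174, SE, adjusted p = 3.51e-09), and Htr1b and Htr5b fell by 3.96 and 5.60. Adora1, the adenosine receptor that damps transmitter release, rose by 1.22 (SE 0.0878) and was higher still in CA3, at a mean of 14.72. Drd1, a dopamine receptor, rose by 3.37, while Crhr1, the receptor for corticotropin-releasing hormone, fell by 2.06 and the muscarinic receptor Chrm4 by 1.81. Over the 49 tested receptors, 9 (18.4%) were higher, a share near the 16.1% of all genes, and 12 (24.5%) were lower, beside 7.01% of all genes. The median was 0.00.

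Genes of corticosteroid and retinoid signalling and of growth factors were called higher in CA2 more often than lower, as were all genes (16.1% higher, 7.01% lower). The 2 receptors for corticosterone differed in opposite directions. Nr3c1, the glucocorticoid receptor, read 11.04, 10.95 and 10.27 in CA2, against 12.51, 12.58 and 12.67 in CA1 (3.56-fold lower, −1.83 ± 0.168, SE, adjusted p = 1.95e-06). Nr3c2, the mineralocorticoid receptor, stood at 14.64, 14.97 and 14.62 in CA2 and at 13.91, 14.21 and 14.24 in CA1. It was called higher (0.63 ± 0.102, SE, adjusted p = 0.000395), but not after quantile normalization (adjusted p = 0.0709) or rescaling to totals (0.122). Fkbp5, a chaperone that dampens glucocorticoid receptor activity, had 11.68, 11.65 and 11.84 in CA2, against 10.17, 10.30 and 10.17 in CA1 (2.85-fold, 1.51 ± 0.125, SE). Of the retinoid genes, Aldh1a1, which makes retinoic acid, rose by 2.5 and the binding protein Crabp1 by 5.92. Cyp26b1, which degrades retinoic acid, rose by 3.81, with a higher CA3 mean of 11.22, and lost its call without mouse 496 (adjusted p = 0.0546). In this list 8 of 20 tested genes were higher and 1 lower, against 5 and 1 under rescaling to totals. Of 22 tested neurotrophins, fibroblast growth factors (FGFs), their relatives and receptors, 12 were higher and 4 lower. After quantile normalization 8 were higher and 4 lower, and after rescaling to totals 7 and 4. Fgf2 had 11.84, 11.84 and 11.88 in CA2, against 8.02, 7.31 and 8.32 in CA1 (15.7-fold, 3.97 ± 0.365, SE, adjusted p = 2.5e-06). Fgf5 rose by 5.54 and Igf1r, the insulin-like growth factor receptor, by 2.69, while Fgf11, an intracellular FGF that binds sodium channels, fell by 2.32.

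Potassium channels, which set resting potential and firing, changed in both directions with large individual differences. Kcnh1 read 12.69, 12.96 and 12.83 in CA2, against 9.99, 10.11 and 10.26 in CA1 (6.53-fold, 2.71 ± 0.125, SE, adjusted p = 2.02e-09). Kcna6, Kcnd3, Kcna1 and Kcnq5 rose by 2.93, 2.63, 2.02 and 2.02, and the CA3 means of Kcna6 (10.94), Kcnd3 (12.37) and Kcna1 (13.91) were near their CA2 levels. Kcnab1, an auxiliary subunit of voltage-gated channels, stood at 10.31, 10.37 and 10.53 in CA2 and at 14.18, 13.82 and 14.10 in CA1. It was 12.4-fold lower (−3.63 ± 0.106, SE, adjusted p = 3.91e-11). Kcnh7 had 11.27, 11.14 and 11.77 in CA2, against 14.77, 14.65 and 14.72 in CA1 (−3.32 ± 0.159, SE), and Kcnq3, a subunit of the M current, fell by 1.66. Of the channels behind the hyperpolarization-activated current, Hcn2 rose by 0.43. Over 56 tested potassium and HCN channel genes, 25 were higher and 14 lower, beside 16.1% and 7.01% of all genes. The balance of 25 to 14 became 16 to 15 after quantile normalization and 14 to 17 after rescaling to totals.

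Among voltage-gated sodium and calcium channels, 9 of 23 were higher and 7 lower, beside 16.1% and 7.01% of all genes. After quantile normalization 6 were higher and 8 lower. Cacna1c, the L-type calcium channel, rose by 1.99 (SE 0.0806, adjusted p = 6.36e-10) and Cacna2d3, an accessory subunit, by 1.75. Scn3b, a sodium channel β subunit, read 12.37, 12.25 and 11.89 in CA2, against 15.16, 14.89 and 15.15 in CA1, 7.45-fold lower (−2.90 ± 0.103, SE). The T-type channels Cacna1g and Cacna1i fell by 2.26 and 2.20. Genes for calcium buffering and extrusion did not move as a block. Calb1, the buffer calbindin, had 7.81, 8.30 and 7.77 in CA2, against 12.09, 11.68 and 11.44 in CA1, so that the CA2 libraries were all low (13.7-fold lower, −3.78 ± 0.259, SE, adjusted p = 1.17e-07). Atp2b1, a plasma membrane calcium pump, fell by 1.74 (SE 0.0605), while Cabp7, a calcium-binding protein of the calmodulin family, rose by 1.95. Of 32 tested genes of this list, which includes Pcp4 and Necab2, 16 were higher and 5 lower, beside 16.1% and 7.01% of all genes. After quantile normalization the counts were 8 and 11.

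Signalling enzymes with roles in plasticity differed as strongly. Camk4, a nuclear kinase activated by calcium and calmodulin, read 15.96, 15.93 and 16.12 in CA2, against 13.80, 13.73 and 13.94 in CA1 (4.52-fold, 2.18 ± 0.0791, SE, adjusted p = 2.52e-10). The conventional protein kinase C genes Prkca and Prkcb went opposite ways. Prkca stood at 16.32, 16.32 and 16.80 in CA2 and at 14.91, 14.66 and 14.82 in CA1, a rise of 1.68 (SE 0.103). Prkcb had 12.41, 12.31 and 12.75 in CA2, against 15.43, 15.23 and 15.42 in CA1, and was 7.30-fold lower (−2.87 ± 0.110, SE, adjusted p = 4.32e-10). Camk2n2, an inhibitor of CaMKII, rose by 1.72, and Ppp1r1b, the phosphatase regulator DARPP-32, fell by 1.26. Of 33 kinases and phosphatases tested, 15 were higher and 9 lower, beside 16.1% and 7.01% of all genes. After rescaling to totals 10 were higher and 13 lower. Of 16 RGS genes, 5 were higher and 3 lower, beside 16.1% and 7.01% of all genes. The counts were 4 and 5 after quantile normalization and 3 and 6 after rescaling to totals. Rgs4 rose by 1.29, and Rgs9 and Rgs2 fell by 2.34 and 1.27.

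Perineuronal net genes had some of the clearest differences of the matrix. Acan, the core proteoglycan aggrecan, read 11.61, 11.37 and 11.95 in CA2, against 5.25, 6.67 and 7.39 in CA1. The CA2 libraries were high in all mice, 37.0-fold above CA1 (5.21 ± 0.374, SE, adjusted p = 1.69e-07), and CA3 had a mean of 6.86. Hapln4, a link protein that fixes proteoglycans to hyaluronan, had 14.53, 14.25 and 14.80 in CA2, against 11.55, 11.39 and 11.60 in CA1 (8.07-fold, 3.01 ± 0.132, SE), and the proteoglycan Vcan rose by 2.52. In contrast, Tnr, the cross-linking glycoprotein tenascin-R, fell by 0.98 and Has3, a hyaluronan synthase, by 1.46. In all 6 of 14 net and matrix genes passed as higher and 2 as lower, beside 16.1% and 7.01% of all genes. Either rescaling to totals or quantile normalization gave 5 and 3.

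Synaptic adhesion genes were sorted in both directions. Lrrtm4, a postsynaptic organizer of excitatory synapses, stood at 11.09, 10.80 and 11.06 in CA2 and at 7.19, 6.85 and 6.53 in CA1 (17.5-fold, 4.13 ± 0.177, SE, adjusted p = 1.11e-09). C1ql3, a secreted organizer that binds an adhesion receptor, read 6.39, 7.74 and 7.93 in CA2, against 12, 11.87 and 11.91 in CA1 (−4.57 ± 0.331, SE). Tenm3, a teneurin that guides CA1 connections, fell by 2.15. Of 42 organizers, 12 were higher and 10 lower, beside 16.1% and 7.01% of all genes. After rescaling to totals 8 were higher and 16 lower. Among 60 axon guidance genes, 24 were higher and 11 lower, beside 16.1% and 7.01% of all genes, against 19 and 20 after rescaling to totals. Sema5a, a semaphorin, rose by 2.63 (SE 0.0995) with a higher CA3 mean of 13.74, and the ephrin receptor Ephb1 rose by 2.85. Another ephrin receptor, Ephb3, had 7.47, 6.93 and 6.64 in CA2, against 10.58, 10.22 and 10.38 in CA1 (−3.38 ± 0.308, SE), and Sema3a fell by 2.36. Of 25 cadherins and protocadherins, 11 were higher and 4 lower, beside 16.1% and 7.01% of all genes. After quantile normalization 9 were higher and 4 lower, and after rescaling to totals 8 and 4. Cdh9, a cadherin of mossy fibre synapses, rose by 2.04 and Cdh6 fell by 3.14.

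Transcription factors of pyramidal neurons divided in a similar way, with 16 of 42 higher and 11 lower, beside 16.1% and 7.01% of all genes. After quantile normalization 13 were higher and 15 lower. Lhx9, a LIM homeodomain factor, read 11.55, 11.37 and 11.73 in CA2, against 5.64, 6.47 and 6.12 in CA1 (44.5-fold, 5.48 ± 0.242, SE, adjusted p = 1.38e-09), with a CA3 mean of 10.82. Tbr1, a T-box factor of glutamatergic neurons, had 12.62, 12.43 and 13.03 in CA2 and 9.81, 9.90 and 10.17 in CA1 (2.73 ± 0.131, SE). Sox5 and Lhx2 rose by 3.06 and 2.12. The POU factor Pou3f1 stood at 9.50, 9.07 and 9.29 in CA2, against 13.43, 13.40 and 13.24 in CA1, 16.8-fold lower (−4.07 ± 0.413, SE), and its relative Pou3f2 fell by 2.34.

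Genes of the transmitter release machinery were called in both directions. Of 46 tested, 26 were higher and 6 lower, beside 16.1% and 7.01% of all genes. Their median was 0.80, and after quantile normalization 21 were higher and 9 lower with a median of 0.43. Leaving out mouse 492, 496 or 502 gave 25, 23 or 26 higher genes. Snap25, a SNARE protein of vesicle fusion, read 18.30, 18.35 and 18.50 in CA2, against 16.69, 16.57 and 16.44 in CA1 (3.51-fold, 1.81 ± 0.104, SE, adjusted p = 9.52e-08). Cplx1, a complexin that clamps fusion, had 14.36, 14.35 and 14.44 in CA2, against 12.32, 12.36 and 12.23 in CA1 (4.23-fold, 2.08 ± 0.0794, SE, adjusted p = 4.25e-10). Slc17a7, the vesicular glutamate transporter of these neurons, rose by 1.03. The 6 lower genes included Doc2b, a calcium sensor for release, with 10.03, 10.22 and 10.32 in CA2 and 13.31, 12.98 and 13.24 in CA1 (−2.98 ± 0.211, SE), as well as Syt17 (−2.53) and Syn3 (−1.96). Set against CA3, 8 of the 46 were higher and 11 lower in CA2, beside 13.6% of all genes called in either direction. The Snap25 mean in CA3 was 18.45.

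Energy metabolism genes were higher on the CA2 side as well. Of 30 glycolysis and citric acid cycle genes, 26 (86.7%) were higher and 0 lower, beside 16.1% and 7.01% of all genes, with a median of 0.72. After quantile normalization 18 were higher and 0 lower, after rescaling to totals 17 and 1. Gpi1, an early glycolytic isomerase, read 14.89, 14.59 and 15.35 in CA2, against 13.74, 13.47 and 13.74 in CA1 (1.29 ± 0.122, SE, adjusted p = 2.68e-06). Mdh1, the cytosolic malate dehydrogenase, rose by 0.98 (SE 0.0749). The glycolytic gene Hk2 passed only narrowly (1.31 ± 0.428, SE, adjusted p = 0.0404), and lost its call on leaving out any 1 mouse (adjusted p = 0.105 to 0.158). Without mouse 496, 18 of the 30 were higher.

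Of 13 mRNAs of the mitochondrial genome, 11 were higher and 0 lower, beside 16.1% and 7.01% of all genes, with a median of 1.06. The most abundant, mt-Co1 of respiratory complex IV, stood at 19.47, 19.30 and 19.76 in CA2 and at 18.72, 18.50 and 18.36 in CA1 (1.98-fold, 0.98 ± 0.143, SE, adjusted p = 0.00112). CA2 of mouse 502 was the highest library and CA1 of mouse 502 the lowest. Rescaling to totals left 11 higher, with a median of 0.71, while quantile normalization left 6 with a median of 0.21. With the deposited values, the 6 CA2 and CA1 libraries alone also left 6 higher. For the nuclear genes of complex I, 9 of 36 (25%) were higher with the deposited values, beside 16.1% of all genes. The count was 1 without mouse 496, 2 without mouse 502, 12 without mouse 492 and 1 after rescaling to totals. For complexes II to V, 20 of 40 were higher and 0 lower, against 10 without mouse 496, 11 without mouse 502 and 24 without mouse 492. After rescaling to totals 9 were higher and 1 lower. Atp5g1, a subunit of ATP synthase, rose by 1.04 (SE 0.131) and Sdhd of complex II by 1.04. Of 78 ribosomal protein genes, 3 (3.85%) were higher, a share below that of all genes, and 0 were lower. After rescaling to totals 0 were higher and 13 lower. Reads of close copies may have been split among the ribosomal protein genes.

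Mcu, the pore of the mitochondrial calcium uniporter, in a series whose title points to mitochondrial function in CA2, read 12.22, 12.24 and 12.19 in CA2, against 10.13, 10.04 and 10.08 in CA1. The libraries of each field were nearly equal and the fields were well apart, by 4.39-fold (2.13 ± 0.109, SE, adjusted p = 4.9e-09), with CA3 between them at a mean of 11.34. Mcur1, a uniporter regulator, had 11.19, 11.25 and 11.09 in CA2, against 9.21, 9.63 and 9.53 in CA1 (3.30-fold, 1.72 ± 0.148, SE). Micu2 differed by −0.08 and Ccdc109b, the other pore-like subunit, by −1.80, neither passing the test (adjusted p of Ccdc109b 0.0644). In all 3 of 7 tested genes of the complex passed as higher and 0 as lower, beside 16.1% and 7.01% of all genes. Either rescaling to totals or quantile normalization gave 3 and 1.

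Immediate early genes, whose transcription follows recent synaptic activity, were mostly lower in CA2. Of 15 tested, 11 were lower in CA2 and 0 higher, with a median of −1.35, beside 7.01% of all genes lower. The other 4 were Fosb (−0.37), Nr4a3 (0.16), Ier2 (−0.49) and Btg2 (−0.61). The values of CA2 and CA1 did not overlap for 9 of the 15, all of them lower, beside 11.3% of all genes. Egr3, a zinc finger factor, read 10.18, 10.37 and 10.66 in CA2, against 12.61, 12.39 and 12.42 in CA1. It was lower in every mouse, most in mouse 492 and least in mouse 502, and 4.21-fold lower on average (−2.07 ± 0.132, SE, adjusted p = 4.57e-08). CA3 had a mean of 12.10. Arc, which drives AMPA receptor endocytosis, had 12.54, 12.68 and 11.87 in CA2, against 14.24, 14.24 and 12.94 in CA1 (2.72-fold lower, −1.44 ± 0.222, SE, adjusted p = 0.000419). Junb, an AP-1 factor, stood at 10.42, 10.30 and 9.08 in CA2 and at 12.04, 11.90 and 10.99 in CA1 (−1.71 ± 0.206, SE, adjusted p = 2.75e-05), and Egr1 fell by 1.63 (SE 0.230).

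The size of the fall differed between mice for some of these genes. Fos, the best known activity marker, read 8.52, 8.23 and 7.66 in CA2, against 10.32, 9.81 and 7.87 in CA1. CA1 of mouse 502 was low, and the groups overlapped (−1.20 ± 0.295, SE, adjusted p = 0.00888). Npas4, an activity-induced factor that shapes inhibition, had 10.06, 10.27 and 9.49 in CA2, against 12.49, 11.57 and 10.14 in CA1 (−1.46 ± 0.342, SE, adjusted p = 0.008), again with a low CA1 library of mouse 502. Without the mouse block, Fos and Npas4 lost their calls (adjusted p = 0.173 and 0.168), and 9 genes were lower. Leaving out mouse 492, 496 or 502 gave 8, 9 or 12 lower genes. Using all 24 libraries for the spread gave 4. Under quantile normalization 11 were lower and under rescaling to totals 12. Tissue was collected within a 2 h window near the end of the light phase, and the labels name no stimulation. Against CA3, 1 of the 15 was higher in CA2 and 3 were lower, beside 13.6% of all genes called in either direction.

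**Figure D3:**
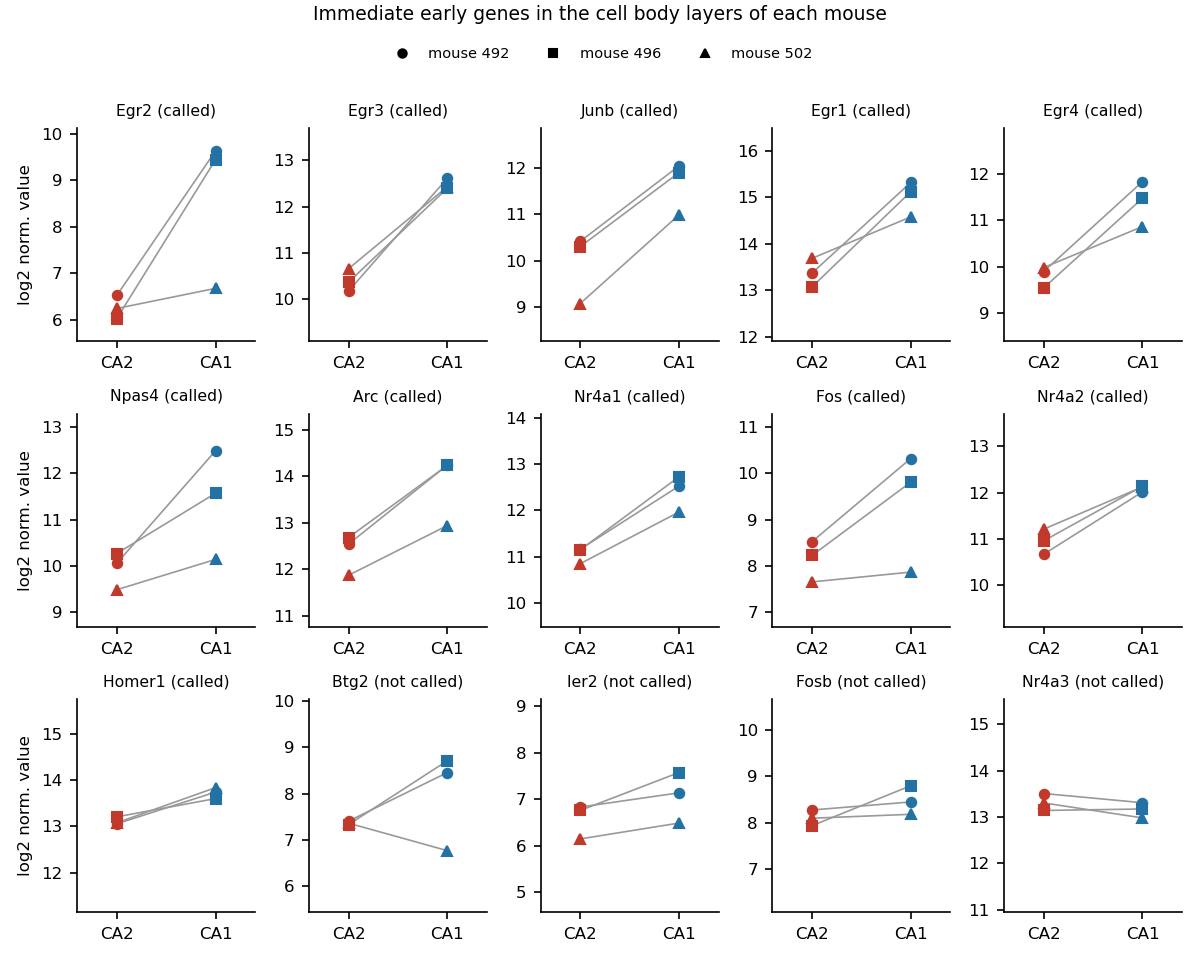
Log2 normalized values of 15 immediate early genes in the CA2 and CA1 cell body libraries, joined within each of 3 mice, with a separate vertical range per gene. All 11 called genes run lower in CA2 in each mouse, and the gap is small in mouse 502 for Fos and Egr2.

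The promoters of 3 called early genes are shown because they hold the core of the cAMP response element, the site bound by CREB, which couples calcium and cAMP signals to transcription of such genes. The 250 bases before the annotated start are given on the strand of the gene, from the RefSeq promoter table (GRCm38.p6), with matches to TGACG or its complement CGTCA in capitals. Fos lies at chr12:85473640-85473889 (+), Nr4a1 at chr15:101266596-101266845 (+) and Nr4a2 at chr2:57124004-57124253 (−).
Fos: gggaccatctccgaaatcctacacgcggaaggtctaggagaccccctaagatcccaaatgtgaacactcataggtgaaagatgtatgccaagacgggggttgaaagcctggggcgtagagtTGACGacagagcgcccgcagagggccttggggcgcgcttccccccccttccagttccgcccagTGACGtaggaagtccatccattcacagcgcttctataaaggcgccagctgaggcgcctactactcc
Nr4a1: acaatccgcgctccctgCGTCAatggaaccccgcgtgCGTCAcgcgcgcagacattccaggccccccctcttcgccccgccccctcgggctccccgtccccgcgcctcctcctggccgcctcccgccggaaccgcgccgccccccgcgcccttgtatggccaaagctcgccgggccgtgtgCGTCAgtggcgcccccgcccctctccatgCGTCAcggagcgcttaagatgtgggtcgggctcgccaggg
Nr4a2: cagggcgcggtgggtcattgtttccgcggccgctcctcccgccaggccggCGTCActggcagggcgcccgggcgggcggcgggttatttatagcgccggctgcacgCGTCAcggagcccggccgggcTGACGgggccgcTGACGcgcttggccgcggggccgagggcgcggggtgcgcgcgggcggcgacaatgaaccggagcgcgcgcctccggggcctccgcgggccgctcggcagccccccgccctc
Fos held 2 matches, at 129 and 66 bases before the start, and Nr4a1 and Nr4a2 held 4 each. Of the 15 early genes, 11 were in the promoter table and 11 of these held the motif on either strand, whether the gene was called or not. It occurred in 17.8% of all 32851 promoters of the same length. A match is a description of these letters and not a binding site. The levels of the orphan nuclear receptor Nr4a1 were 11.16, 11.15 and 10.85 in CA2, against 12.52, 12.72 and 11.96 in CA1 (−1.35 ± 0.159, SE), and Nr4a2 fell by 1.14.

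Markers of some other cell types differed between the layers, beside 16.1% of all genes higher and 7.01% lower. The sums below are of deposited values, whose library totals were themselves higher in CA2. Of 13 oligodendrocyte markers, 11 were higher and 0 lower, against 10 and 0 after rescaling to totals. Their summed level was 36005 to 49572 normalized counts in CA2, against 13036 to 14092 in CA1. Mbp, myelin basic protein, read 14.29, 14.03 and 13.86 in CA2, against 12.23, 12.33 and 12.23 in CA1 (3.48-fold, 1.80 ± 0.162, SE, adjusted p = 2.85e-06), and CA3 libraries had a still higher list sum of 44906 to 56072. Astrocyte markers summed to 21885 to 23081 in CA2 and 14547 to 14619 in CA1, with 6 of 12 higher, 2 of them without mouse 496. After rescaling to totals 4 astrocyte markers were higher and 1 lower. Ntsr2, a neurotensin receptor of astrocytes, had 12.01, 11.94 and 12.41 in CA2 and 9.49, 9.54 and 9.67 in CA1 (2.55 ± 0.159, SE). Interneuron markers summed to 18012 to 20830 in CA2, against 13789 to 14370 in CA1, with 4 of 13 higher but 0 higher and 1 lower after rescaling to totals. Oligodendrocyte precursor markers summed to 1879 to 2733 in CA2 and 889 to 1070 in CA1, with 4 of 5 higher, against 2 after rescaling to totals. Microglia markers summed to 3322 to 4395 in CA2 and 2819 to 3194 in CA1, but only 1 of 12 was called higher, a share below that of all genes, and their median was −0.12 after rescaling to totals. Endothelial sums overlapped, at 3862 to 6668 in CA2 and 2194 to 4740 in CA1, with 1 of 10 higher, against 0 after rescaling to totals. Mural cell sums were 3077 to 3519 in CA2 and 1602 to 1922 in CA1, with 2 of 6 higher, against 1 after rescaling to totals.

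Granule cell markers summed to 2070 to 3587 in CA2 and 5215 to 6685 in CA1, far under the 88923 to 97943 of DG. Single markers did not follow the sums, since 3 of 9 were called higher and 1 lower, beside 16.1% and 7.01% of all genes. Their median was 0.77. Prox1, a defining granule cell factor, rose by 1.75 while Lct fell by 4.05. Of the choroid plexus and ependymal list, Ttr, the transthyretin of choroid plexus, had 6.07, 8.64 and 6.63 in CA2, against 3.72, 2.87 and 0.00 in CA1, and lost its call without mouse 496 (adjusted p = 0.106). Kl, klotho, which neurons also express, fell by 2.5 and led the list's sum of 906 to 1129 in CA2, against 3150 to 3555 in CA1. Clic6 was listed at 0 in all CA1 libraries, and no other marker of these lists was at 0 in all libraries of CA2 or CA1. The part of these cell types in the differences of the other lists, including release and metabolic genes, was not tested. Nor was the part of the mitochondrial share of the library totals.

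**Figure D4:**
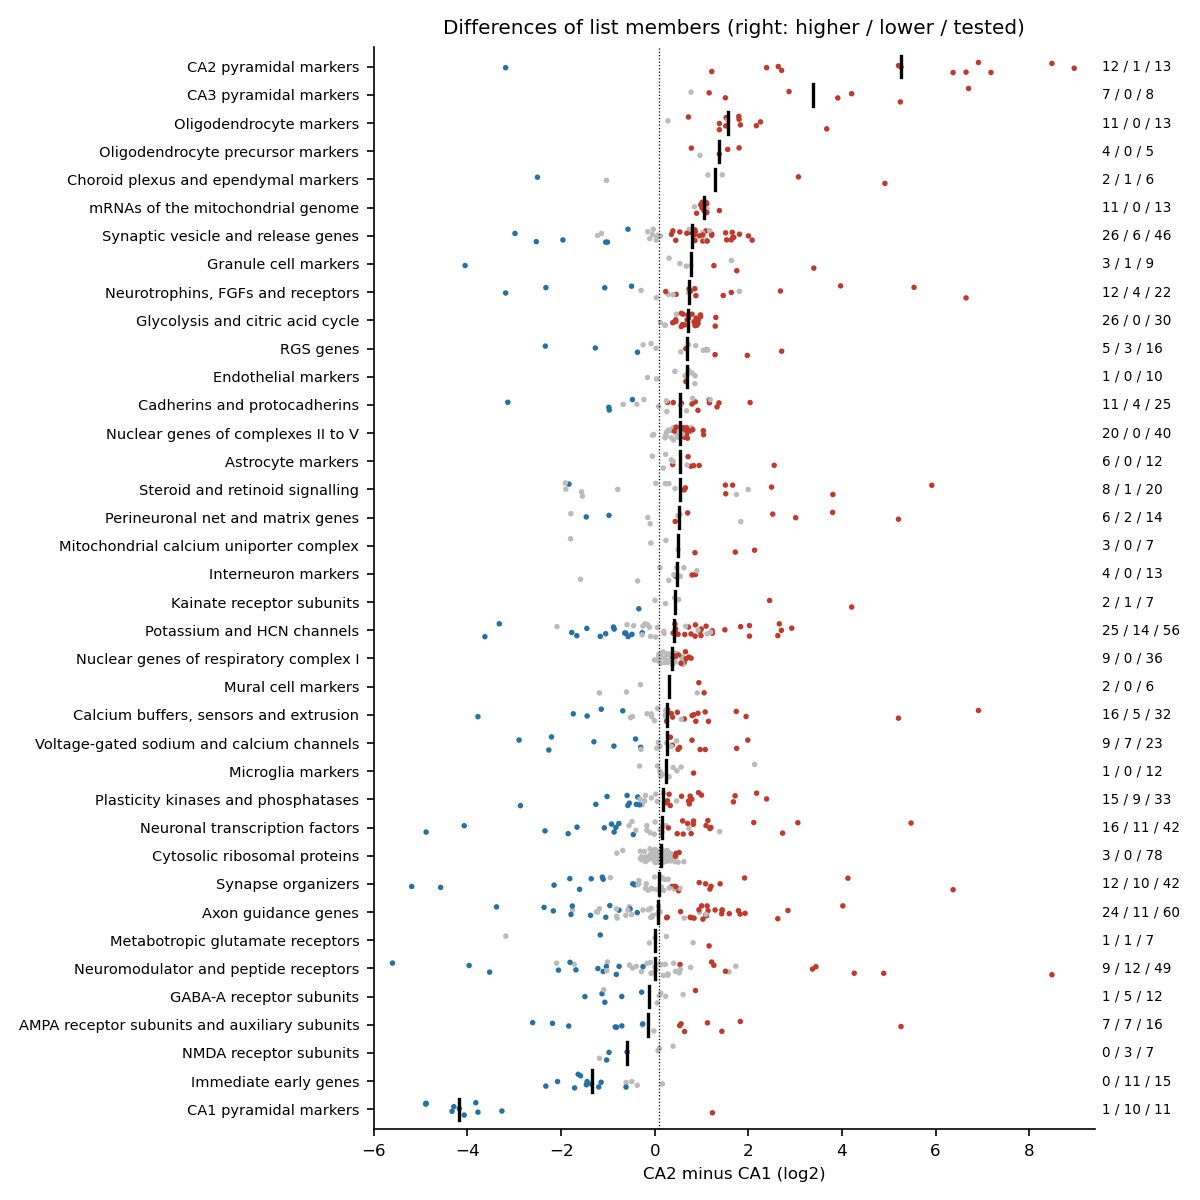
CA2 minus CA1 (log2) of each tested member of 38 gene lists, with members called higher in red, lower in blue and not called in grey. The black bar is the list median, the dotted line the median of all genes (0.09), and the counts at the right (higher, lower, tested) are for the deposited scaling. Immediate early genes (0 higher, 11 lower) and CA1 markers stand at the low end, and CA2 and CA3 markers at the high end.

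The dendritic layers of the same fields, captured from the same mice with 1 ng of RNA per library, showed smaller CA2 minus CA1 differences for Amigo2, Pcp4, Rgs14, Necab2 and Ptpn5. The difference between the compartments (dendritic minus cell body) was tested with limma over 24 libraries and 24911 genes, of which 2505 (10.1%) were called, 303 higher (1.22%) and 2202 lower (8.84%). That split followed the scaling, with 381 higher and 417 lower after quantile normalization and 636 and 347 after rescaling to totals. Amigo2 read 10.19, 9.76 and 9.53 in CA2 dendritic layers, against 8.49, 9.47 and 9.13 in CA1 dendritic layers, a difference of 0.79 beside 6.37 in cell bodies (dendritic minus cell body −5.58 ± 0.468, SE, adjusted p = 1.06e-07). The dendritic groups of Amigo2 were close but did not overlap. Pcp4 had 11.84, 11.71 and 11.25 in CA2 dendritic layers, against 13.24, 11.07 and 9.97 in CA1 dendritic layers. These values overlapped, with CA1 of mouse 492 the highest (0.17 in dendritic layers, −6.74 ± 0.807 between compartments, SE). Mcu, with 9.64, 9.60 and 9.59 in CA2 dendritic layers, against 10.25, 10.85 and 8.97 in CA1 dendritic layers, differed by −0.41 there and by 2.13 in cell bodies (−2.55 ± 0.427, SE, adjusted p = 0.000309). The CA1 marker Mpped1 was 3.35 lower in CA2 in dendritic layers and 3.82 lower in cell bodies, and the difference between compartments did not pass the test (0.48, adjusted p = 0.476). RNA input and compartment cannot be told apart in these libraries.

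Transcript shares within a gene were compared for 9035 genes with at least 2 tested transcripts. limma's diffSplice called 260 (2.88%), but on simulated data 33.5% to 49.2% of its calls were false, so a test of each transcript's log2 share was added after seeing the data. The simulations shifted 1 transcript in each of 200 of the 9035 genes, with noise drawn independently for each transcript. Shares of false calls hold for that setting and are not error rates of the calls in the data. In the same simulations the share test recovered 0% of genes shifted by 2 on the log2 scale and 47.5% of those shifted by 4, where 5% of its calls were false. A gene that missed this test is therefore not shown to be unchanged. In the data it called 10 genes (0.111%), 9 of which diffSplice also called, and 970 at an unadjusted p below 0.05. With mouse 492, 496 or 502 left out it called 0 genes, with 810, 718 and 705 at an unadjusted p below 0.05, and without the mouse block it called 51. With the 6 CA2 and CA1 libraries alone it called 0 genes, with 425 at an unadjusted p below 0.05. Gria1 was among the 10 (share test false discovery rate, FDR, 0.0365, diffSplice FDR 0.00282). It has mutually exclusive flip and flop exons, which code for a stretch of the ligand-binding domain that sets how fast the receptor desensitizes. The 2 exons are shown because the share moved between them. The exons lie at chr11:57309769-57309883 (+) for flop and chr11:57310608-57310722 (+) for flip (GENCODE M21, GRCm38), and the 36 of 115 bases that differ are in capitals.
Gria1 flop: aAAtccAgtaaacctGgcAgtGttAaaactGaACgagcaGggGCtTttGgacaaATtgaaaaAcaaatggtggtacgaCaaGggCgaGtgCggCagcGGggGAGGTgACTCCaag
Gria1 flip: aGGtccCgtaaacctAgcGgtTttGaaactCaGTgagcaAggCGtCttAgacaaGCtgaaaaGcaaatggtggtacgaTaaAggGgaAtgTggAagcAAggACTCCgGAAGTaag
The transcript with the flip exon made up 74.7%, 72.0% and 69.9% of Gria1 in CA2, against 30.0%, 31.1% and 33.5% in CA1. All CA2 libraries were mainly flip and all CA1 libraries mainly flop, at means of 72.2% ± 2.40 in CA2 and 31.5% ± 1.81 in CA1 (SD, n = 3 mice each). CA3 was mainly flip (82.9%) and DG mainly flop (39.8% flip). Left out of the test in turn, mice 492, 496 and 502 gave an FDR of 0.286, 0.419 and 0.422, with fewer libraries behind each. With the 6 CA2 and CA1 libraries alone, the share test FDR of Gria1 was 0.906.

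Mbp also passed the share test (FDR 0.0395), but not with the 6 CA2 and CA1 libraries alone (FDR 0.906). The transcripts that start upstream of the myelin promoter, known as golli and made in neurons as well as in glia, were 2.38%, 2.25% and 2.83% of Mbp in CA2, against 38.5%, 28.3% and 31.8% in CA1. CA2 was low in every mouse, as was CA3 (mean 5.25%), while DG was high (34.3%). The higher Mbp level and the oligodendrocyte markers in CA2 moved together with this share, and their part in it was not tested. The other 8 genes passing were 1700024P16Rik, Abr, Efnb2, Hs6st2, Lipt2, Maml3, Mxra8 and Rpl5, of which Rpl5 has close copies.

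Kalrn and Grin1 were called by diffSplice but not by the share test. Kalrn codes for kalirin, a guanine nucleotide exchange factor of dendritic spines. Its 3 tested transcripts that share 1 internal start region made up 1.69%, 1.84% and 0.775% in CA2, against 32.0%, 30.3% and 25.5% in CA1 (share test FDR 0.0657, diffSplice FDR 7.75e-11, both for the gene). For these 3, CA3 and DG were at means of 28.4% and 29.6%, so that CA2 was the low one of the 4 fields. Another transcript, Kalrn-212, starts still further inside the gene and is not counted among the 3. Its shares were 8.40%, 7.57% and 5.33% in CA2, against 4.91%, 3.98% and 5.15% in CA1. In Grin1, the N1 cassette exon codes for an extracellular stretch that speeds NMDA receptor deactivation. Its 63 bases, at chr2:25311343-25311405 (−), are shown because shares with and without it lay apart although the gene level did not pass the test.
Grin1 N1: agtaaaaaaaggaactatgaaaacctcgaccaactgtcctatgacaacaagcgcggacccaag
Transcripts with this exon made up 19.5%, 19.8% and 40.1% of Grin1 in CA2, against 6.30%, 2.85% and 5.07% in CA1 (share test FDR 0.185, diffSplice FDR 0.00031). CA2 was above CA1 in each mouse, with mouse 502 far above the other CA2 libraries, and CA3 was at a mean of 25.8%. These transcript values are estimates from short reads that many transcripts share, and no counting error can be given for them.

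**Figure D5:**
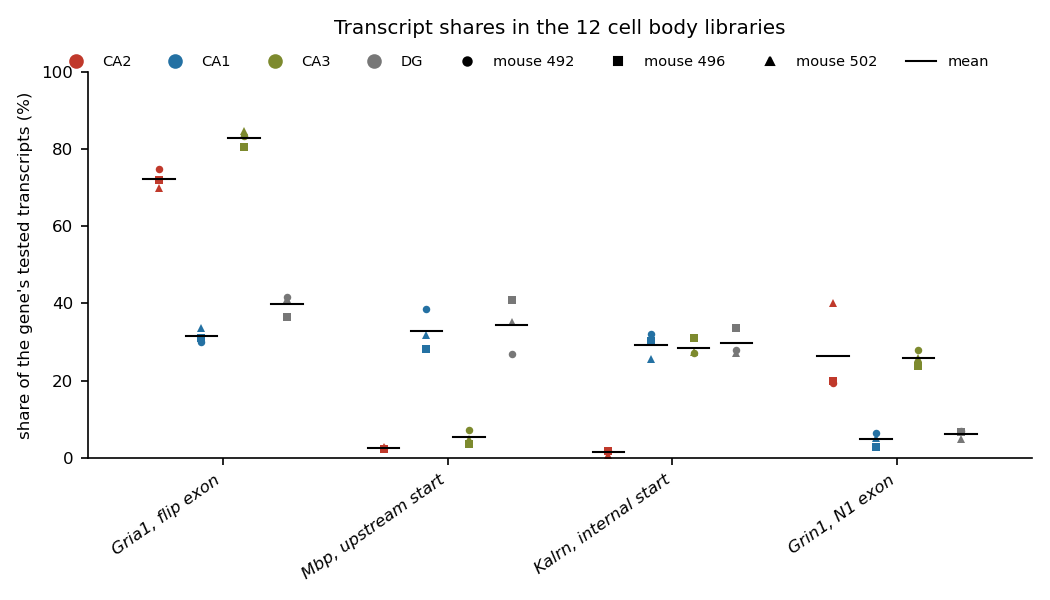
Share (%) of a gene's tested transcripts that carry the Gria1 flip exon, the Mbp upstream start, the Kalrn internal start or the Grin1 N1 exon, in cell body libraries of CA2, CA1, CA3 and DG. For Kalrn, only the 3 transcripts that share 1 internal start region are counted, without Kalrn-212. Symbols are mice and bars are means of 3, with CA2 apart from CA1 in each, near CA3 for Gria1, Mbp and Grin1 and apart from CA3 for Kalrn.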

How the data were processed

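RNA of laser-captured layers was sequenced in paired reads of 100 bp, per the labels' protocols. The 8 libraries of a mouse were handled together, so mouse and batch are 1 factor for the cell body libraries. For the dendritic libraries, some of which were remade, this is not shown. The deposited gene and transcript tables hold log2 values of Salmon estimates that the authors median-normalized, per the file headers. The submitters' processing notes name Salmon 0.9.1, STAR 2.5.1b and mm10. Estimates allow no counting interval, and whether counting used strand is not stated in the labels or headers. A table with 12 array columns was not used, and 4 repeat dendritic libraries without columns were not analysed here.

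limma 3.58.1 (R 4.3.3, statmod 1.5.0, trended and robust) was fitted to 12 cell body libraries with 4 groups and mouse as a block (6 residual degrees of freedom), on 22232 of 49341 genes with at least 10 normalized counts in at least 3 libraries. The labels pair samples by animal. Deviations of CA2 and CA1 libraries of the same mouse correlated at 0.0180, 0.0555 and 0.0130. The compartment test used 24 libraries (14 residual degrees of freedom), and transcript usage 30567 transcripts, of which GENCODE M21 matches came by ID without version (99.5% of the table). Values near 0 on the log2 scale understate changes of low genes. The tests were tried on simulated data.

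The members and the 38 gene lists were chosen with earlier results of these data known. Named genes were a set of 10, the 15 largest differences each way, up to 3 genes per list and direction with the smallest adjusted p, and the 6 largest compartment differences each way. Others, such as Fos, Npas4, Kalrn, Grin1 and further list members, were chosen after their values were seen. Individual results of a few genes that the rule selects are left out, while list counts keep every member. Alternatives were no block, other libraries, scalings, filters and pseudocounts, and leaving out mice or libraries.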

Additional observations from a re-analysis of the deposited data

Results flagged for a closer look

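The CA2 minus CA1 difference was not equal in dendritic and cell body layers for the genes named here, by limma's test of dendritic minus cell body over all genes. The scaling matters for the balance of these results, since the median gene stood at −0.28 with the deposited values, 0.01 after quantile normalization and 0.49 after rescaling to totals. For CA2 markers and Mcu, the test gave −5.58 for Amigo2, −2.25 for Rgs14 (0.46 in dendritic layers, 2.71 in cell bodies), −6.74 for Pcp4, −3.38 for Necab2 (1.83 and 5.21), −1.87 for Ptpn5 (0.52 and 2.39) and −2.55 for Mcu. The CA1 marker Wfs1 gave 2.36 (−2.53 in dendritic layers, −4.89 in cell bodies), and it lost its call without mouse 502 (adjusted p = 0.068).

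The largest positive values belonged to genes with low levels in 1 or both compartments. Pax2 gave 11.02 (adjusted p = 0.00142), with 6.72, 3.64 and 5.55 in CA2 dendritic layers, against 0.00, 0.00 and 5.22 in CA1 dendritic layers. Zfp993 gave 10.31, Fbn2 9.44, Fut2 9.20, Trp63 9.13 and Alas2 7.73. The largest negative values were −9.59 for Dysf, −9.12 for Scube2, −8.56 for Iyd, −7.67 for Evi2b, −7.63 for Cenpk and −7.53 for Fam160a1. All of these but Fam160a1 also had libraries listed at 0. Dysf and Scube2 were at 0 in CA2 dendritic layers of mouse 492 and in CA1 cell bodies of mice 492 and 502. Iyd read 7.34, 0 and 0 in CA1 dendritic layers. Of these 12 genes, Alas2, Fut2, Cenpk, Evi2b and Iyd lost their calls most often across the alternatives.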

How the results depend on the processing

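Mouse identity comes from the labels, so the paired fit is the one reported; with no replicate block the calls were 5085, of which 4901 were shared with the paired fit, and 2300 between compartments. All 24 libraries gave 1809 calls (1321 higher, 488 lower), and the 6 CA2 and CA1 libraries alone 1022 lower. Quantile normalization gave 2284 higher and 2345 lower, rescaling to totals 1825 and 3453, and rescaling to totals outside the mitochondrial genome 1987 and 3134. Leaving out a mouse or library gave 2669 to 4528 calls, 1890 to 3092 higher and 779 to 1539 lower. List medians turned negative for sodium and calcium channels (−0.051 quantile, −0.10 totals, −0.053 totals outside the mitochondrial genome), plasticity kinases (−0.10, −0.16, −0.12), transcription factors (−0.062, −0.20, −0.16) and axon guidance (−0.20, −0.28, −0.23). With totals, and with totals outside the mitochondrial genome, they did so for microglia (−0.12, −0.071) and calcium buffers (−0.085, −0.040), with totals for mural cells (−0.041), and without CA1 of mouse 502 for mural cells (−0.12; −0.12 to 0.70 over all mice or libraries left out). The NMDA median was 0.058 without CA1 of mouse 492 (−0.69 to 0.058). Calls between compartments were 798 with quantile normalization, 983 with totals, 865 to 1709 without a mouse, 970 when CA1 dendritic libraries of mice 492 and 496 were dropped, and 1488 without CA2 dendritic libraries that have a repeat. diffSplice called 172 genes with the stricter filter, 57 with 6 libraries, 103 to 262 without a mouse or library, and the share test 10. With 6 libraries, or with a mouse left out, the share test called 0. The causes were not tested. Over 206 named genes, most of them chosen for a large difference or a small p, and all alternatives, 3096 pairs of gene and alternative kept direction and call between CA2 and CA1 cell bodies, 189 lost the call, 2 gained it and 0 reversed.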
